A study of Helianthemum marifolium subsp. andalusicum and Helianthemum marifolium subsp. marifolium and Helianthemum marifolium subsp. molle with 16 samples.

Results

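Leaf transcript levels were compared between the subspecies marifolium and origanifolium of the rock rose relative Helianthemum marifolium, a small Mediterranean shrub. The comparison uses the 4 marifolium and 4 origanifolium libraries of a series with 16 libraries, chosen by the start of their column names. Of 100462 clusters of assembled transcripts in the count table, 34680 had 10 or more counts in at least 4 of these 8 libraries and were tested. The 8 libraries are poly-A RNA from adult leaves of plants raised from seed in a shared greenhouse and sampled 446 days after sowing, with no treatment named in the labels. The organism label gives the marifolium plants as a subspecies of H. marifolium and the origanifolium plants as the species H. origanifolium, while the design text of the series counts both among its 4 subspecies.

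A transcriptome assembled without a genome represents each expressed sequence by contigs, and a cluster groups contigs that share reads. Alleles or gene copies that differ enough in sequence can form clusters of their own, so that a cluster at 0 in a plant is a sequence form without reads and not always a gene without expression. Plants raised together from seed are a usual way to look at differences between populations with the growth environment held alike. The files pair no gene names with clusters, so the levels of leaf marker genes could not be checked and no function is given below. Clusters are described by level and, where the assembler wrote it into the name, by transcript length.

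Libraries are named by subspecies and by the number in their title. The titles also carry a code of unstated meaning, shared by marifolium 12 and 15, by marifolium 17 and 18, by origanifolium 31 and 33, and by origanifolium 38 and 39. In the same way andalusicum 1 and 3, andalusicum 6 and 8, molle 22 and 25, and molle 27 and 29 share codes. The labels do not say that libraries of a subspecies came from separate plants, so p-values measure library spread, which may be technical. Totals ran from 29339551 to 31588345 counts in marifolium and from 22170314 to 32036854 in origanifolium. Levels are given in CPM, counts per 1000000 counts of the library. The upper limit behind a count of 0 was 0.0936 to 0.135 CPM over the 8 libraries, for counting error only.

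The libraries differed in how many clusters they held at low counts. A total of 19361, 19472, 18773 and 18332 clusters had 1 to 9 counts in origanifolium 31, 33, 38 and 39. In marifolium 12 and 15 there were 8876 and 9503 such clusters, and in marifolium 17 and 18 there were 2947 and 3133. All 4 origanifolium libraries lay above all 4 marifolium libraries, and marifolium 17 and 18 lay below every other library of the series. The mean was 18984 ± 532 clusters in origanifolium and 6115 ± 3560 in marifolium (SD, n = 4 each; exact permutation test, two-sided p = 0.0286, the smallest that 4 against 4 can give). The measure of 1 to 9 counts was added after the data were seen. The test takes the 4 libraries of a subspecies as independent, although libraries that share a title code had similar numbers. Its p therefore holds for libraries and not for codes. The gap was present at equal depth: with every library thinned to 22170314 counts the means were 19788 ± 329 and 7748 ± 4083. Clusters with 10 or more counts numbered 38367 ± 1697 in origanifolium and 38971 ± 4531 in marifolium and overlapped between the groups (exact permutation test, two-sided p = 0.857). The part of this gap in the counts of one-sided clusters below was not tested.

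**Figure D1:**
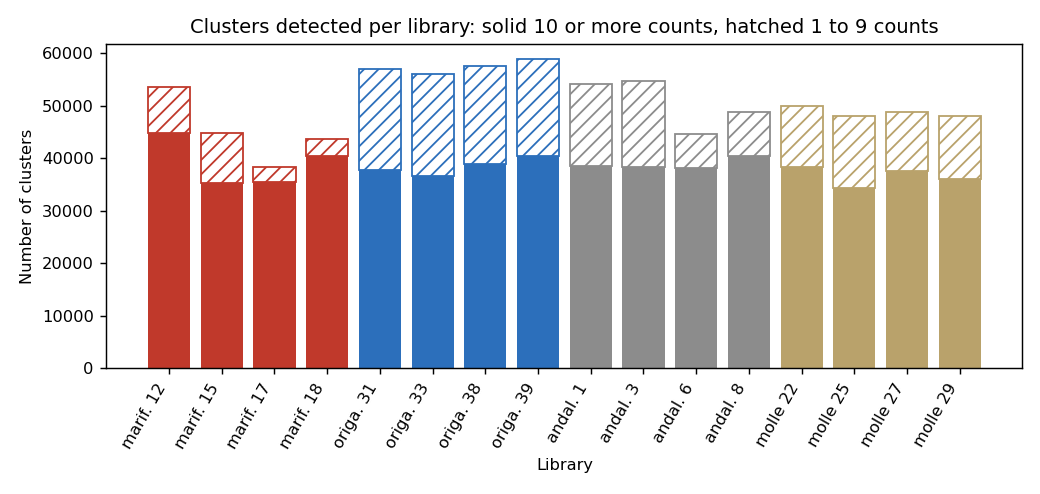
Number of clusters (y axis) with 10 or more counts (solid) and with 1 to 9 counts (hatched) in each of the 16 libraries (x axis), coloured by subspecies. The hatched part is 18332 to 19472 clusters in the origanifolium libraries and 2947 to 9503 in the marifolium libraries, while the solid parts overlap.

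Across the 34680 tested clusters, 60 differed between the subspecies, 0.173% of those tested (quasi-likelihood test of edgeR with p adjusted after Benjamini-Hochberg, under 0.05). In leaf tissue as a whole, fewer cells of a type and less RNA per cell cannot be told apart. Of these, 36 were higher in marifolium (0.104% of tested clusters) and 24 were lower (0.0692%). Which direction had more calls depended on the model: lower calls outnumbered higher ones with DESeq2 (1056 against 838), with limma voom and the title code as a random block (246 against 82), with all 16 libraries in the edgeR model (90 against 47), with the legacy=FALSE setting of edgeR (138 against 92) and with counts of 1 to 9 set to 0 (21 against 18). The test treats the 4 libraries of a subspecies as independent, although they share title codes in pairs. With the libraries of each code summed, 0 clusters were called (edgeR, smallest adjusted p = 0.291, 3523 with an unadjusted p under 0.05). The limma fit with the code as a block kept 40 of the 60. Its fitted correlation between libraries of a code, shared by all clusters, was -0.026, so the block changed that fit little. The adjusted p-values of single clusters below therefore hold for libraries and not for codes. The calls were sorted by the level on the lower side. In 26 the lower side had 0 counts in all 4 libraries, in 20 it had 1 to 39 counts over its 4 libraries (called trace here), and in 14 it had 40 or more and the cluster counted as expressed on both sides. The share called was 6.86% of the 379 tested clusters at 0 on one side, 0.649% of the 3081 trace clusters and 0.0448% of the 31220 clusters expressed on both sides. Clusters at 0 on one side entered the test only when all 4 libraries of the other side reached 10 counts. For them a gap between the groups is therefore fixed by the filter. With these 379 clusters left out of the fit and the adjustment, 19 of the 60 were still called, 5 of them expressed on both sides. The adjusted p-values given below for the 14 come from the adjustment that includes the 379.

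By direction, the calls were made up as follows. Among the 36 clusters higher in marifolium, 11 had 0 counts in origanifolium, 19 were at trace there and 6 were expressed on both sides. Among the 24 clusters lower in marifolium, 15 had 0 counts in marifolium, 1 was at trace and 8 were expressed on both sides. The median fitted change over all tested clusters was -0.04 on the log2 scale.

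In all 60 called clusters the 4 libraries of one subspecies lay beyond the 4 of the other in CPM of the library total. The same was so for 3690 tested clusters, 10.6% of all, whatever their p, with 1438 higher (4.15%) and 2252 lower in marifolium (6.49%). Among clusters expressed on both sides, 2525 did not overlap (8.09%): 1083 were higher without overlap (3.47%) and 1442 lower (4.62%). Trace clusters without overlap numbered 206 higher (6.69%) and 580 lower (18.8%). A trace cluster is low on one side by definition and could not pass the filter with the counts of that side alone. The class and the filter therefore favour a gap, and their part in these shares was not tested. Among the clusters without overlap that were expressed on both sides, the median fitted changes were 1.09 and -1.29 on the log2 scale. A change of at least 3 on that scale was reached by 56 increases and 101 decreases.

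The count of calls rested on every library. Without marifolium 12, 15, 17 or 18 edgeR called 16, 48, 18 and 4 clusters, and without origanifolium 31, 33, 38 or 39 it called 8, 1, 0 and 1, where 3643 had an unadjusted p under 0.05 without origanifolium 38. DESeq2 on the same 8 libraries called 1894 clusters, 5.46% of those tested, among them all 60, and each of the 60 kept its direction under every alternative that gave it a value.

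**Figure D2:**
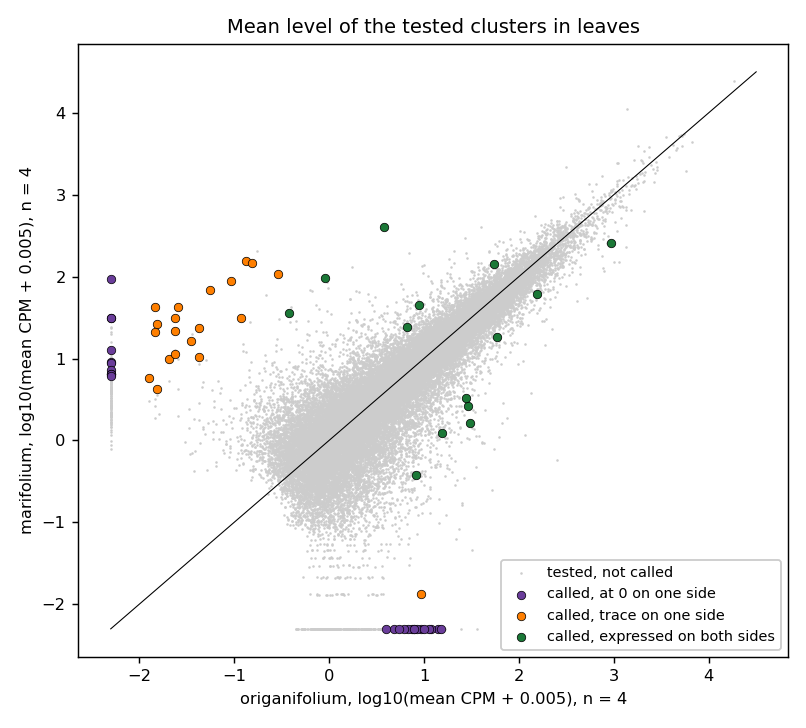
Mean CPM of each tested cluster in origanifolium (x axis) and marifolium (y axis), 4 libraries each, as log10 of the mean plus a small constant that keeps means of 0 on the plot, with the line of equal levels. The 26 called clusters at 0 on one side lie on the left and lower edges, the 20 called trace clusters near them and mostly on the left, and the 14 called clusters expressed on both sides lie off the line on both sides of it.

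Clusters expressed on both sides and lower in marifolium numbered 8, and 6 of them fell under the rule for single description. The smallest p was that of Cluster-3823.30815, with a transcript of 2270 nt. Its levels were 0.981, 1.26, 1.17 and 1.5 CPM in marifolium 12, 15, 17 and 18, against 13.7, 11.51, 10.7 and 25.8 CPM in origanifolium 31, 33, 38 and 39. The groups did not overlap, and origanifolium 39 was highest. The fitted change was -3.64 ± 0.44 on the log2 scale (SE; edgeR adjusted p = 0.0249). Andalusicum, at 0.727 to 0.949 CPM, lay just below marifolium, and molle, at 1.25 to 4.31 CPM, reached above it but not to origanifolium.

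A short transcript of 273 nt stood at 1.90, 2.35, 3.28 and 3.07 CPM in its 4 libraries against 43.9, 12.98, 34.4 and 25.6 CPM in origanifolium (log2 fold change -3.48 ± 0.43 SE, edgeR adjusted p = 0.0277). Here andalusicum (1.00 to 2.17 CPM) and molle (0.870 to 2.82 CPM) lay within or below the marifolium range, so that the 4 origanifolium libraries lay above all 12 others. The same held for the cluster before it.

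Another cluster ran from 0.579 to 2.75 CPM in marifolium and from 14.8 to 47.8 CPM in origanifolium (log2 fold change -4.18 ± 0.58 SE, edgeR adjusted p = 0.0378). Andalusicum was lower still, with 0 CPM in andalusicum 6 and 0.367 CPM at most, and molle ranged from 0.149 to 6.77 CPM. The largest fitted decrease in this class was that of a transcript of 3959 nt, at 0.378 ± 0.159 CPM in marifolium and 8.20 ± 4.84 CPM in origanifolium (SD, n = 4 each; log2 fold change -4.46 ± 0.66 SE, edgeR adjusted p = 0.0482). Its origanifolium libraries spread from 3.89 to 14.7 CPM.

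Of the 8 decreases, 4 had andalusicum libraries on both sides of the midpoint between the marifolium and origanifolium levels. The one of these with the smallest p stood at 3.25 ± 1.17 CPM in marifolium and 27.9 ± 8.26 CPM in origanifolium (log2 fold change -3.12 ± 0.40 SE, edgeR adjusted p = 0.0313). In andalusicum it was at 0.797 and 7.89 CPM in libraries 1 and 3 and at 17.5 and 24.7 CPM in libraries 6 and 8. Andalusicum 1 lay below the marifolium range, and andalusicum 8 lay within the origanifolium range.

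Smaller decreases were found in more abundant clusters. One was at 18.4 ± 5.06 CPM in marifolium and 59.3 ± 12.0 CPM in origanifolium (log2 fold change -1.70 ± 0.23 SE, edgeR adjusted p = 0.0342), with all 8 andalusicum and molle libraries between 14.5 and 35.5 CPM. The remaining clusters of the 8 were outside the rule and are given because they complete the count. They stood at 61.0 ± 6.23 against 156 ± 21.7 CPM (log2 fold change -1.36 ± 0.19 SE, edgeR adjusted p = 0.0387) and at 258 ± 58.3 against 924 ± 213 CPM (-1.86 ± 0.27 SE, edgeR adjusted p = 0.0470).

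In the other direction, 6 clusters expressed on both sides were higher in marifolium. Cluster-3823.67090 had the smallest p and the largest fitted increase. Marifolium 12, 15, 17 and 18 held 94.8, 113, 87.6 and 89.6 CPM of it, compared with 1.31, 0.778, 1.29 and 0.219 CPM in origanifolium 31, 33, 38 and 39. The 4 marifolium libraries lay close together, and the 8 libraries of andalusicum and molle, at 0.361 to 2.26 CPM, lay with origanifolium. The fitted change was 6.75 ± 0.58 on the log2 scale (SE; edgeR adjusted p = 0.0136). It was called in 17 of 23 alternatives, several of which differ little from the main fit. The other called clusters expressed on both sides were called in 5 to 15 of the 23.

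A further increase grouped the subspecies otherwise. In marifolium this cluster had 116, 346, 963 and 209 CPM, in origanifolium 7.40, 2.58, 1.86 and 3.496 CPM in origanifolium (log2 fold change 6.66 ± 0.80 SE, edgeR adjusted p = 0.0249). Andalusicum was as high, at 304 to 551 CPM, while molle ran from 2.49 to 57.2 CPM. A cluster of the same kind was at 35.7 ± 12.7 CPM in marifolium and 0.373 ± 0.388 CPM in origanifolium (log2 fold change 6.56 ± 0.98 SE, edgeR adjusted p = 0.0494). Its counts in the origanifolium libraries, in the order of their numbers, were 0, 17, 2 and 23. Their sum of 42 lay just above the lower limit for clusters counted as expressed on both sides. The cluster was at 7.20 to 36.3 CPM in andalusicum and at 0 to 3.14 CPM in molle. Both clusters placed andalusicum on the marifolium side and most molle libraries on the origanifolium side.

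The other 3 increases were smaller. A transcript of 1185 nt had 122, 121, 173 and 149 CPM in the marifolium libraries and 49.98, 55.6, 50.5 and 61.9 CPM in origanifolium (log2 fold change 1.36 ± 0.18 SE, edgeR adjusted p = 0.0334), and every andalusicum and molle library lay above origanifolium, at 74.5 to 294 CPM. A cluster at 45.5 ± 12.3 CPM in marifolium and 8.96 ± 3.38 CPM in origanifolium (log2 fold change 2.31 ± 0.35 SE, edgeR adjusted p = 0.0494) had its andalusicum and molle libraries between, at 11.4 to 24.8 CPM, overlapping the highest origanifolium library. The last was at 24.6 ± 4.72 CPM in marifolium and 6.67 ± 1.51 CPM in origanifolium (log2 fold change 1.87 ± 0.28 SE, edgeR adjusted p = 0.0482), with andalusicum from 3.22 to 15.5 CPM and molle from 10.5 to 23.9 CPM.

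**Figure D3:**
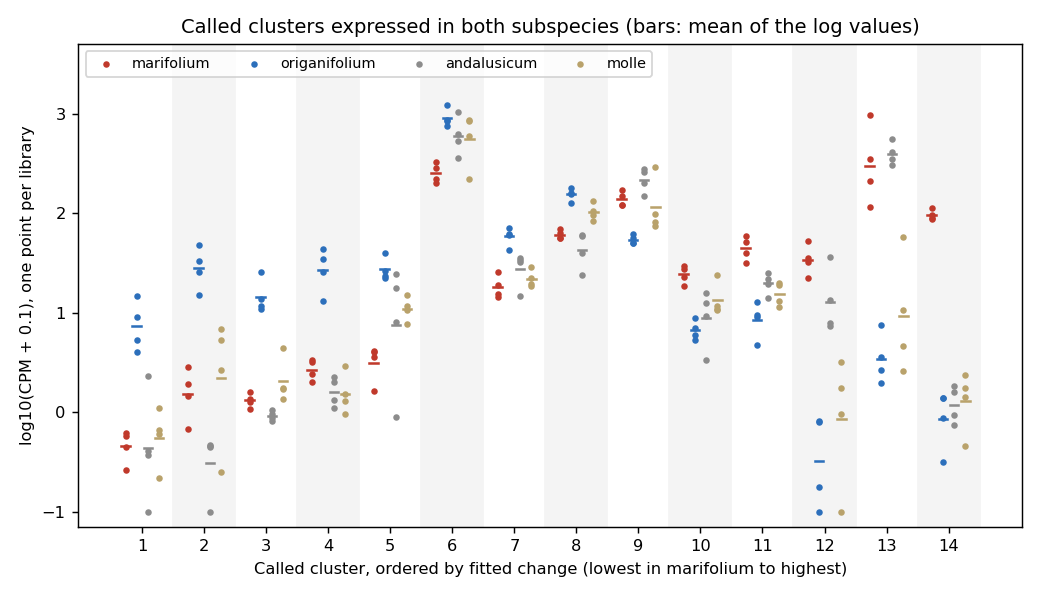
Level of the 14 called clusters expressed on both sides (x axis, ordered from the largest fitted decrease in marifolium to the largest increase) as log10(CPM + 0.1) on the y axis, with 1 point for each of the 16 libraries and a bar at the mean of the log values of each subspecies. Marifolium and origanifolium do not overlap in any of the 14, while andalusicum and molle lie with marifolium in some clusters and with origanifolium in others.

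Set against the midpoint between the marifolium and origanifolium means, on the scale of log2(CPM + 0.1), the 14 clusters had all 4 andalusicum libraries on the marifolium side in 7, all 4 on the origanifolium side in 1 and a split in 6. Molle lay wholly on the marifolium side in 3, wholly on the origanifolium side in 2 and was split in 9. Over the 1442 clusters expressed on both sides and lower in marifolium without overlap, andalusicum lay wholly on the marifolium side in 26.5% and wholly on the origanifolium side in 13%. For molle these shares were 26.9% and 13.1%. Over the 1083 higher ones they were 21.0% and 12.7% for andalusicum, and 18.0% in both cases for molle. In the remaining 60.0% to 66.3% the libraries of a subspecies lay on both sides of the midpoint. No test was made of these shares, since clusters are not replicates.

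Clusters at 0 or at trace in origanifolium made up 30 of the 36 increases, and 9 were described singly. Cluster-3823.16925, with a transcript of 1192 nt, had the smallest p. It had 687, 937, 1046 and 2471 counts in marifolium 12, 15, 17 and 18, or 21.7, 31.0, 33.98 and 84.2 CPM, and 0, 2, 0 and 0 counts in the origanifolium libraries. Marifolium 18 was the highest library. The ratio of the pooled rates was 2212 (95% exact interval 612 to 18274, for counting error only; edgeR adjusted p = 0.0136). Andalusicum reached 0.459 CPM in 1 library and was at 0 in the others, and molle lay at 0 to 2.75 CPM.

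A cluster at trace in origanifolium with a narrower spread in marifolium was at 134, 70.2, 95.6 and 133 CPM there and had 33 counts over the 4 origanifolium libraries, a mean of 0.285 ± 0.277 CPM (log2 fold change 8.49 ± 0.85 SE, edgeR adjusted p = 0.0136). Andalusicum and molle were as low, at 0.0322 to 1.67 CPM. Another increase, with 0 counts in origanifolium, was present in andalusicum as well. Its levels were 48.0, 10.7, 14.6 and 52.4 CPM in marifolium, 11.4 to 43.1 CPM in andalusicum and 0 in all 4 molle libraries. With 3 counts over the 4 origanifolium libraries as the floor (0.0286 CPM), its marifolium mean was at least 1099-fold higher (edgeR adjusted p = 0.0334). A short transcript of 211 nt was at 9.56 to 15.6 CPM in marifolium and at 0 in origanifolium, at least 442-fold higher (edgeR adjusted p = 0.0203), and occurred in 1 of 4 andalusicum and 3 of 4 molle libraries.

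Several of the largest increases shared an uneven profile in which marifolium 15 was low. Over the 30 clusters at 0 or trace in origanifolium, marifolium 15 was the lowest marifolium library in 18 and marifolium 17 the highest in 16. The longest called transcript, of 11054 nt among the 27 called clusters with a length, was at 136, 28.5, 230 and 218 CPM in marifolium 12, 15, 17 and 18. In origanifolium it had 0 CPM in libraries 31 and 33, and 0.456 and 0.0624 CPM in libraries 38 and 39. Outside these subspecies it was at 50.6 and 13.9 CPM in andalusicum 6 and 8, at 0.554 and 0 CPM in andalusicum 1 and 3, at 2.23 CPM in molle 25 and at 0 CPM in molle 22, 27 and 29. The groups did not overlap between marifolium and origanifolium, and andalusicum divided by title code.

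In all, 12 clusters followed this transcript with a Pearson correlation of at least 0.95 over the 16 libraries on the scale of log2(CPM + 0.1), itself included, a criterion set after the values were seen. The lowest correlation inside was 0.9505 and the highest outside 0.948, and 25 clusters reached 0.9. All 12 were tested and 10 were among the 60 calls. Their profile was the reason for the choice, so these counts carry no test. The points share libraries and their depths. The members of 11054 and 10490 nt were linked by a gene name of an assembler, and so were those of 4434 and 3067 nt. The 12 clusters therefore need not be separate genes. Lengths were given for 10 of the 12 and ran from 1012 to 11054 nt with a median of 3751 nt, against a median of 1410 nt over the 12350 tested clusters with a length. The 4 called clusters with a transcript of over 5000 nt all belonged to the set, out of the 27 calls with a length. Among the 4 are the transcript that defines the set, chosen for its length, and the one of 10490 nt linked to it.

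Summed over the 12, the level was 518, 98.7, 957 and 789 CPM in marifolium 12, 15, 17 and 18 and 0, 0.328, 1.25 and 0.0624 CPM in origanifolium 31, 33, 38 and 39. It was 0.727, 0, 144 and 51.6 CPM in andalusicum 1, 3, 6 and 8, and 0, 7.28, 0 and 0.800 CPM in molle 22, 25, 27 and 29. Every member had 10 or more counts in the 4 marifolium libraries and in andalusicum 6, and 11 had them in andalusicum 8. In origanifolium only 1 member reached 10 counts, in library 38. The library with the lowest marifolium level, 15, has a depth of 30207036 counts, within the range of the others. The cause of its lower level was not tested.

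The largest fitted increase was in this set. With 11502 marifolium counts and 0 in origanifolium, a transcript of 7680 nt was at 66.8, 13.2, 152 and 147 CPM in marifolium 12, 15, 17 and 18. Its mean was at least 3315-fold higher (edgeR adjusted p = 0.0349). It was also present in andalusicum 6 and 8, at 14.5 and 9.91 CPM. Another, of 4434 nt, had 5214 marifolium counts against 1 in origanifolium, a ratio of pooled rates of 4488 (95% exact interval 805 to 177290; edgeR adjusted p = 0.0136). A transcript of 2558 nt, whose profile fell outside the criterion, was at 28.5, 5.50, 50.8 and 38.6 CPM in marifolium and at 0 in origanifolium, at least 1079-fold higher (edgeR adjusted p = 0.0334). An assembler's gene name linked this transcript to a member of the set, of 1175 nt. The other described members, a transcript of 3067 nt and a cluster with no length, had ratios of 2234 (401 to 88253) and 2796 (501 to 110450), with 1 origanifolium count each (edgeR adjusted p = 0.0136 for both).

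**Figure D4:**
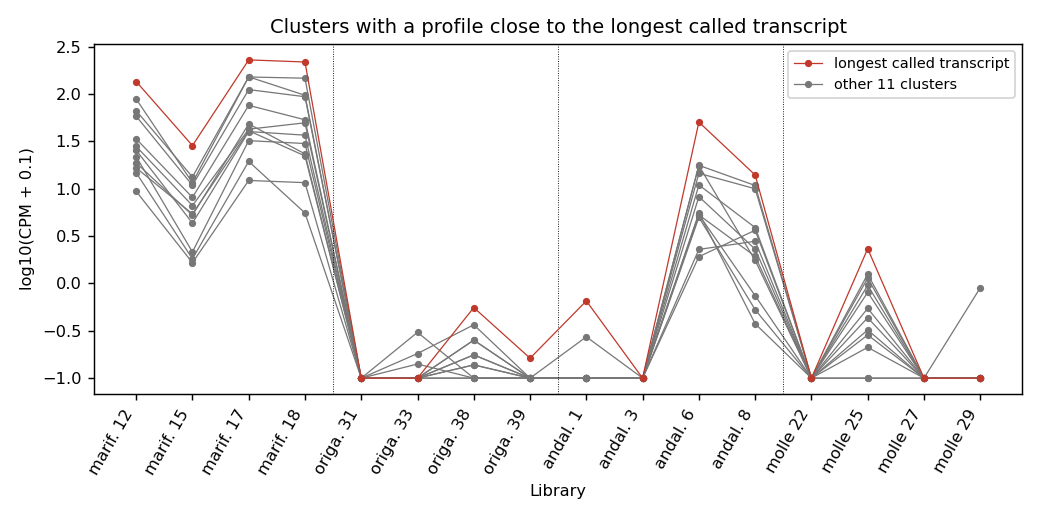
Level of the 12 clusters with a profile close to that of the longest called transcript, as log10(CPM + 0.1) on the y axis, in the 16 libraries on the x axis; 1 line stands for 1 cluster and dotted lines separate the subspecies. The lines run in parallel over the marifolium libraries with a dip at library 15, lie near the floor in origanifolium, and are high again in andalusicum 6 and 8 and, weakly, in molle 25.

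Clusters at 0 or trace in marifolium made up 16 of the 24 decreases, 15 of them with no count in marifolium. Cluster-3823.44903, with a transcript of 1913 nt, had the smallest p, at 13.8, 14.7, 14.3 and 17.1 CPM in origanifolium 31, 33, 38 and 39. The spread of these libraries was narrow, and the origanifolium mean of 14.98 ± 1.46 CPM was at least 609-fold above the floor of 3 counts over the marifolium libraries (0.0246 CPM; edgeR adjusted p = 0.0136). Andalusicum, at 8.32 to 15.1 CPM, and molle, at 12.4 to 19.3 CPM, held it in all 8 libraries.

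Other decreases took different forms in the remaining subspecies. A transcript of 1761 nt with 0 counts in marifolium stood at 12.7, 10.97, 16.2 and 16.2 CPM in origanifolium, at least 569-fold higher (edgeR adjusted p = 0.0136). It was at 0 in all 4 andalusicum libraries and in molle 25 and 27, but at 12.7 and 16.4 CPM in molle 22 and 29, levels inside the origanifolium range. Molle 22 and 29 carry different title codes. A further cluster with 0 counts in marifolium was at 11.8 ± 4.35 CPM in origanifolium and at 14.3 to 18.4 CPM in andalusicum, and divided molle by code, with 0.674 and 1.11 CPM in molle 22 and 25 and 17.7 and 16.4 CPM in molle 27 and 29 (at least 479-fold, edgeR adjusted p = 0.0249).

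A cluster at 8.24 to 12.9 CPM in origanifolium was absent almost everywhere else, with 0 counts in marifolium and andalusicum and 0.938 CPM in molle 22 alone (at least 410.1-fold, edgeR adjusted p = 0.0208). The cluster with the fifth smallest p ran from 6.62 to 9.92 CPM in origanifolium, with 0 to 2.0 CPM in andalusicum and 0 to 0.417 CPM in molle (at least 319-fold, edgeR adjusted p = 0.0249). Present in all 12 libraries outside marifolium was a cluster at 5.45 to 22.2 CPM in origanifolium, 7.93 to 15.1 CPM in andalusicum and 5.98 to 10.1 CPM in molle (at least 463-fold, edgeR adjusted p = 0.0334).

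Whatever their p, 230 clusters were at 0 in all 4 marifolium libraries and at 10 or more counts in each origanifolium library, and 149 showed the reverse. With 20 or more counts asked of each library on the present side, the numbers were 73 and 85, so the order of the directions turned. It also turned without marifolium 15 (367 absent in marifolium and 1087 absent in origanifolium), without marifolium 17 (289 and 434), without marifolium 17 and 18 (419 and 814) and without marifolium 12 and 15 (1018 and 1317). With up to 9 counts allowed in each library on the absent side they were 479 and 271. The clusters absent in marifolium had lower levels where present, a median of 1.41 CPM in origanifolium, than those absent in origanifolium had in marifolium, at 4.13 CPM. The highest library on the present side stood at a median of 3.33 times the lowest among clusters absent in marifolium and 10.5 times among those absent in origanifolium. A mean of 10 CPM or more was reached by 9 of the 230 and 16 of the 149.

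Both sets were followed in the libraries outside the comparison. Of the 149 clusters absent in origanifolium, 76 (51.0%) had no count in any of the 8 andalusicum and molle libraries, and 0 had 10 or more counts in all 8. Of the 230 absent in marifolium, 21 (9.13%) had no count in any of the 8, and 11 (4.78%) had 10 or more in all 8. In single andalusicum and molle libraries, 23.9% to 36.1% of the clusters absent in marifolium had 10 or more counts. For clusters absent in origanifolium that share was 10.1% in andalusicum 1 and 3, 21.5% and 26.8% in andalusicum 6 and 8, and 6.04% to 10.7% in molle. The libraries with the most counts of 1 to 9 are those of origanifolium, and the part of this in the shares was not tested.

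**Figure D5:**
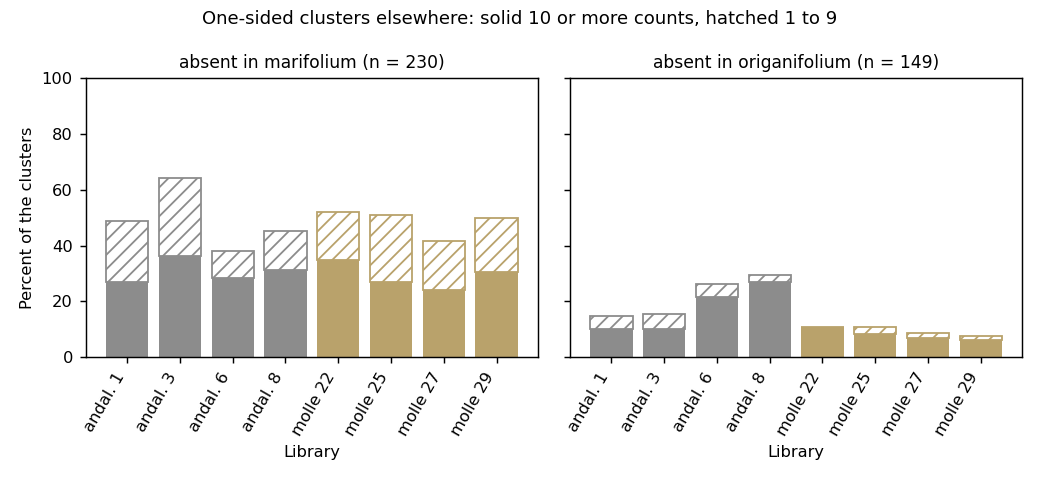
Percent of the 230 clusters absent in marifolium (left) and of the 149 absent in origanifolium (right) that had 10 or more counts (solid) or 1 to 9 counts (hatched) in each andalusicum and molle library (x axis). The solid bars lie at 23.9% to 36.1% on the left and at 6.04% to 26.8% on the right, where andalusicum 6 and 8 stand highest.

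Some called clusters had a relative under the same gene name of an assembler. Of the 60, 13 were linked in this way to at least 1 other counted cluster. With counts summed over linked clusters 8 of the 13 were still called (edgeR), all 13 in the same direction. The transcripts of 11054 and 10490 nt were linked to each other and shared a sum, as did those of 4434 and 3067 nt. The 13 and the 8 therefore count clusters and not separate sums. In the clearest case, chosen after its values were seen, a cluster with 0 CPM in marifolium and 9.37 CPM on average in origanifolium had a linked cluster at 22.9 CPM in marifolium and 22.1 CPM in origanifolium. The cluster named above at 258 against 924 CPM likewise had a linked cluster at 783 CPM in marifolium and 719 CPM in origanifolium. In both cases the linked form overlapped between the subspecies. For other links the linked cluster was itself higher in marifolium without overlap. These were the pairs of 11054 and 10490 nt and of 4434 and 3067 nt, and the link of the transcript of 2558 nt. Among the 230 clusters absent in marifolium 37 had a linked cluster, and in 13 of these the linked cluster had 10 or more counts in every marifolium library. Among the 149 absent in origanifolium these numbers were 12 and 2.

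Marifolium 12 and 18 carried counts that the other 6 libraries nearly lacked. A set of 9111 clusters had over 95% of its 8-library counts in these libraries, and held 2.08% and 3.24% of their counts against at most 0.00831% in the others, a gap that the choice of the clusters fixes. Only 6 of the 9111 had enough libraries to be tested. With the 9111 left out, the same 60 clusters were called. With the libraries themselves left out edgeR called 0 clusters, 4322 having an unadjusted p under 0.05, and the same happened without marifolium 17 and 18 (0 calls, 4998 with an unadjusted p under 0.05). Over the 36 increases the median fitted change was 9.95 with all libraries and 9.79 without marifolium 12 and 18. It was 9.19 without marifolium 17 and 18. Over the 24 decreases the medians were -10.37, -10.34 and -10.305 in the same order. Of these decreases, 15 had 0 counts in all marifolium libraries, so leaving out marifolium libraries could hardly move their median. Without marifolium 12 and 18, 3 of the 60 moved by over 1 on the log2 scale. Clusters with 10 or more counts averaged 35566 in marifolium and 38360 in origanifolium once the 9111 were removed (exact permutation test, two-sided p = 0.0571). The 9111 were chosen for their counts in marifolium 12 and 18, so leaving them out lowers mainly the marifolium mean. This difference and its p follow in part from that choice.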

How the data were processed

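Poly-A RNA from adult leaves was sequenced in 16 libraries, 8 of them compared here, per the labels' protocols. The authors deposited raw counts, whole numbers per cluster and library, and a list pairing transcripts with clusters. Names in the files look like those of Corset clusters and of Trinity and Oases transcripts, a resemblance only. FastQC is named in the submitters' processing notes. No source used here states the assembler, aligner, counter or strandedness, so antisense transcripts cannot be told apart and reads shared by near-identical clusters may have been split.

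Columns were matched to libraries by title, and 0 were unmatched. The members and the rules were chosen with earlier results of these data known. Clusters with 10 or more counts in at least 4 of the 8 libraries went into edgeR 4.0.16 under R 4.3.3 (TMM scaling, glmQLFit with its default legacy setting, quasi-likelihood F-test, Benjamini-Hochberg adjustment over 34680 clusters). The dispersion common to all clusters was 0.740 (biological coefficient of variation 86.0%). SE came from the F statistic. CPM used the library total, and the tested clusters held 94.9% to 98.6% of the counts of the 8 libraries. No library pair agreed within sampling noise (chi-square per degree of freedom 92.7 to 233). For a group at 0, folds are lower bounds against a floor of 3 counts over its 4 libraries, and ratios with 1 to 3 counts carry 95% exact intervals. Reads carry no molecular identifiers, so intervals cover counting error only.

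Single clusters were described by a rule: called, without overlap, at least 1 CPM on the higher side, and among the 5 smallest p or the 5 largest changes per direction and class. Identifiers are printed for the smallest p in each. The edgeR step was checked on simulated counts. Alternatives used DESeq2 1.42.0 and limma 3.58.1, other filters, thinning (numpy 2.4.6, seed 1), summed title codes, sums over an assembler's gene names and left-out libraries. Sums joined clusters sharing such a name, with 1 group of 1566 kept separate.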

Additional observations from a re-analysis of the deposited data

How the results depend on the processing

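No paired analysis was possible because library numbers are not shared between the subspecies. RLE size factors gave 52 calls (9 on both sides), thinning 51, gene-name sums 55, no filter 59, filterByExpr 60, the legacy=TRUE setting, which is the default, 60, and leaving out the clusters specific to marifolium 12 and 18 also 60. The next settings moved the count by over 1.5 times. For all calls, higher, lower, at 0 on one side and on both sides, DESeq2 gave 1894, 838, 1056, 374 and 1165, and limma voom with the title code as a random block gave 328, 82, 246, 200 and 85. With all 16 libraries in the model there were 137 calls (90 lower, 47 at 0 on one side, 66 on both sides), and with at least 1 CPM in 4 libraries 95 (45 lower, 43 and 22). With clusters at 0 on one side left out 19 remained to be called (15 higher, 4 lower, 5 on both sides). Summing the libraries of each title code gave 0 calls of each kind in edgeR (3523 with an unadjusted p under 0.05), as did leaving out marifolium 12 and 18 or 17 and 18. Settings added after the data were seen were legacy=FALSE, with 230 calls (92 higher, 138 lower, 85 on both sides), counts of 1 to 9 set to 0, with 39 (18 higher, 17 at 0 on one side, 8 on both sides), and the sets without marifolium 17 and 18. Also added then were the measure of clusters with 1 to 9 counts and the sets without marifolium 12 and 15. So was the limit of up to 9 counts for absence. Without 1 library edgeR called 0 to 48 clusters, 0 to 30 higher, 0 to 18 lower, 0 to 21 at 0 on one side and 0 to 9 on both sides. The causes were not tested, beyond the fewer libraries in some settings.

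Clusters absent in marifolium numbered 498 and 73 with 5 and 20 counts asked, 542 without marifolium 12 and 18, 419 without 17 and 18, 1018 without 12 and 15, 479 with up to 9 counts counted as absent, and 288 to 441 without 1 library. Those absent in origanifolium numbered 85 with 20 counts asked, 318, 814 and 1317 without the same pairs, 271 with up to 9 counts, and 167 to 1087 without 1 library, the highest without marifolium 15. The mean difference in detected clusters, 604 more in marifolium, became -12266 at a minimum of 1 count and -2794 without the clusters of marifolium 12 and 18, and ran from -1323 to 1814 without 1 library. The value of -2794 follows in part from the choice of those clusters. Depth limits what a 0 can show to the CPM bounds given for each library.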

Other observations

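The share of tested clusters whose marifolium and origanifolium libraries did not overlap changed little with abundance. It was 11.4% of 6044 clusters with a mean under 1 CPM over the 8 libraries, 10.1% of 15749 from 1 to 10 CPM, 10.7% of 11154 from 10 to 100 CPM and 12.2% of 1733 at 100 CPM or more. The median size of the fitted change fell from 0.98 in the lowest class to 0.74, 0.38 and 0.35 on the log2 scale in the others. These classes hold all tested clusters, among them the 379 at 0 on one side, where the filter fixes a gap. The part of these and of the trace clusters in the shares and sizes was not tested.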
